A study of Rattus norvegicus with 26 samples.

Results

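The miR-26 family of the rat is a pair of microRNAs, rno-miR-26a and rno-miR-26b, that carry the same seed, the stretch of bases with which a microRNA (miRNA) recognises its target mRNAs. The members were found by their names on the array, which carries 677 rat miRNAs, so the family makes up 2 of 677. The scanner software detected 209 of these miRNAs on at least 1 array and 82 on all arrays, and both members were among the 82.

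The arrays came from a study of liver regrowth after partial hepatectomy (PH), the surgical removal of part of the liver, in male Sprague-Dawley rats. The smaller operation, 1/3PH, removed the left lateral lobe, and the larger one, 2/3PH, is known to set off a strong wave of DNA replication. RNA came from right lobes of the remnant at 6, 12, 24 or 36 h. For some arrays at 12, 24 and 36 h the source label reads 1 or 2 h later than the title and the time label, which were followed. Another 3 rats that had no PH gave the same lobes as controls, called normal liver here although the protocol label reads sham. Each rat gave 1 array, and the 26 arrays fell into 9 groups, with 2 arrays at 6 h after 1/3PH and 3 arrays in every other group. The labels give neither an age nor a genotype, and name no drug.

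Depth on these arrays is the fluorescence of each array. The signal summed over the miRNAs detected on each array lay between 38371 and 67278 signal units on 25 of the arrays. Between 118 and 155 miRNAs were detected on them. Replicate 2 at 12 h after 1/3PH stood apart, with a summed signal of 11768 and 91 detected miRNAs, so the comparisons of the members that use that group are also given without it. The number of arrays per group limits the precision of every value.

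A mature miRNA guides an Argonaute protein to mRNAs that hold a match to its seed, and these mRNAs are then translated less or degraded. The miR-26 members sit inside introns of genes for phosphatases of the Ctdsp family, are abundant in resting liver, and are known for repressing Ezh2, a histone methyltransferase, and cyclins of the G1 phase. They are often found at lower levels in hepatocellular carcinoma.

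The sequences of both members are shown first because the family is defined by them and because the members differ in so few bases that their probes had to tell close relatives apart. Both arrayed names matched an entry of the RefSeq table for build GRCr8. Capitals mark the seed, bases 2 to 8 from the 5′ end.
rno-miR-26a: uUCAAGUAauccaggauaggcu
rno-miR-26b: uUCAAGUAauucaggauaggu
rno-miR-26a is 22 bases long and lies on the plus strand at chr8:127633063-127633084, and rno-miR-26b is 21 bases long and lies on the plus strand at chr9:83425723-83425743. Aligned from the 5′ end, 19 of 21 positions were identical. The substitutions were C11U and C21U (the miR-26a base first, positions counted from 1 at the 5′ end), and miR-26a had 1 further base at its 3′ end. The seed UCAAGUA occurred in 2 of the 693 mature rat miRNAs of the table, and these 2 were the members themselves.

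The precursor hairpins are shown because the members come from separate genes and each hairpin also holds a passenger arm with its own probes on the array. Capitals mark both mature arms, the miR-26 member first and its passenger arm second.
Mir26a: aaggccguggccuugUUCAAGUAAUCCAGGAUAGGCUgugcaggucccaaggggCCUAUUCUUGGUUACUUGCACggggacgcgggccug
Mir26b: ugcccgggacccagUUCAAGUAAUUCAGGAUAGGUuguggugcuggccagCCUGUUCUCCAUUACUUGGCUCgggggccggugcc
In the annotation the Mir26a hairpin of 90 bases lies within Ctdspl and the Mir26b hairpin of 85 bases within Ctdsp1. The array measures mature miRNAs, and the host genes were not measured here.

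Each member was read by 2 probes with 10 spots each, none of which was saturated on any array. All 4 probes of the members were detected on 26 of 26 arrays. The passenger arms rno-miR-26a* (2 probes) and rno-miR-26b* (4 probes) were detected on 0 of 26 arrays, so nothing can be said about them beyond their being under the detection limit. A probe's brightness depends on its sequence as well as on the amount of miRNA, so the level of one member is not compared with the level of the other. All values below are log2 of a member's signal after division by a scale factor of its array (the 75th percentile of 109 probes that were well above background on all arrays).

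In normal liver, the log2 level of miR-26a was 1.43, 1.52 and 1.42 in the 3 rats. At 6 h it was 1.35 and 1.42 in the 2 rats after 1/3PH, and 1.5, 1.37 and 1.5 in the 3 rats after 2/3PH. At 12 h it was 1.58, 1.12 and 1.34 after 1/3PH, and 1.33, 1.48 and 1.49 after 2/3PH. Up to 12 h the operated livers thus lay in or near the span of the normal livers, apart from the dim array at 12 h after 1/3PH, which gave 1.12. At 24 h miR-26a was 1.23, 1.42 and 1.33 after 1/3PH, against 1.02, 0.98 and 0.95 after 2/3PH. At 36 h it was 1.43, 1.35 and 1.31 after 1/3PH, against 0.64, 0.80 and 1.01 after 2/3PH. At both late times each rat with 2/3PH had less miR-26a than any rat with 1/3PH. Over the whole series, the 6 late 2/3PH livers (0.64 to 1.02) lay under all 20 others, which ran from 1.12 through a median of 1.42 to 1.58.

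For miR-26b the log2 level in normal liver was 0.71, 0.78 and 0.73. At 6 h it was 0.76 and 0.78 after 1/3PH, and 0.80, 0.92 and 0.76 after 2/3PH. At 12 h it was 0.81, 0.48 and 0.74 after 1/3PH, and 0.58, 0.84 and 0.69 after 2/3PH. The dim array again gave the lowest value of its group, 0.48. At 24 h miR-26b was 0.63, 0.75 and 0.52 after 1/3PH, and 0.38, 0.54 and 0.50 after 2/3PH. At 36 h it was 0.75, 0.70 and 0.71 after 1/3PH, and 0.34, 0.46 and 0.63 after 2/3PH. The late 2/3PH livers were again low, but the separation was looser than for miR-26a: 3 of the 6 lay under all others, and 4 of the 20 others (0.48 to 0.92 in all) lay within the late range of 0.34 to 0.63.

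**Figure D1:**
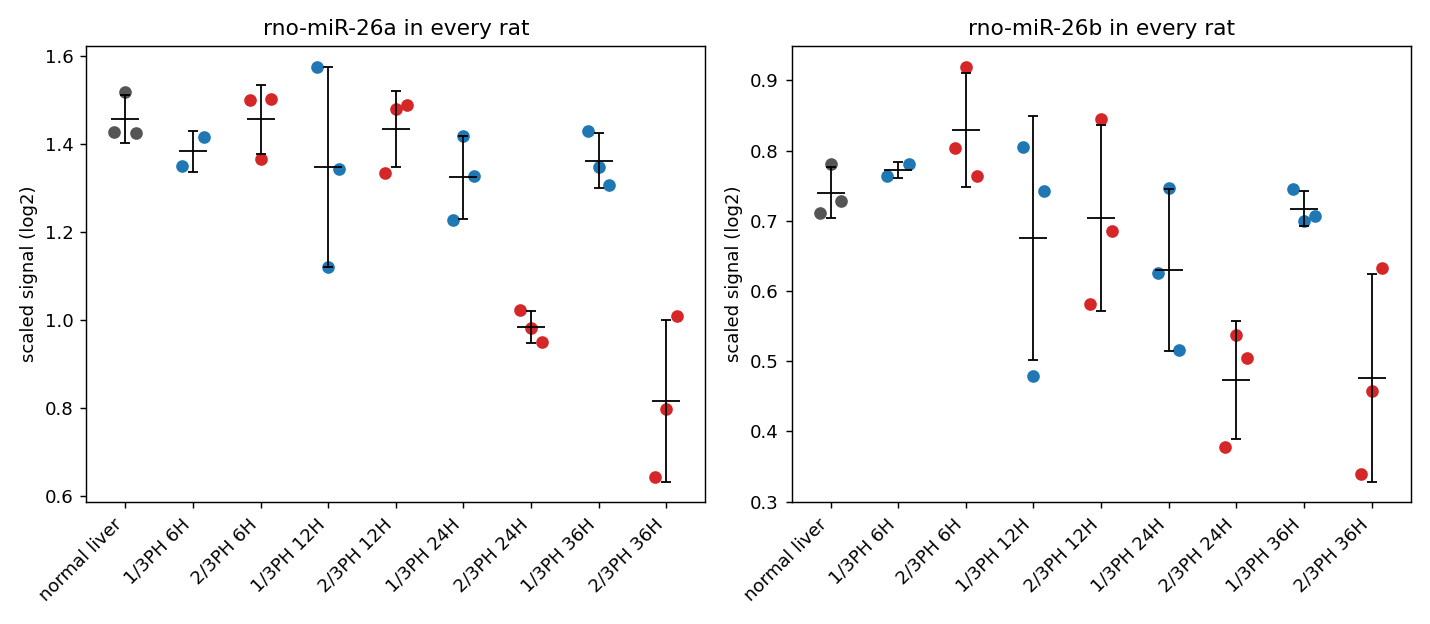
Scaled log2 signal of rno-miR-26a (left) and rno-miR-26b (right) in every rat, with a point per array (grey normal liver, blue 1/3PH, red 2/3PH) and bars for the group mean and SD. The 6 late 2/3PH arrays lie between 0.64 and 1.02 for miR-26a, under all 20 other arrays, and between 0.34 and 0.63 for miR-26b, where 4 other arrays lie in the same range.

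Ordered from high to low, the group means of miR-26a were 1.46 ± 0.054 in normal liver (SD, n = 3), 1.46 ± 0.078 and 1.43 ± 0.086 at 6 and 12 h after 2/3PH (n = 3 each), and 1.38 ± 0.046 at 6 h after 1/3PH (n = 2). They went on with 1.36 ± 0.063 at 36 h, 1.35 ± 0.23 at 12 h and 1.32 ± 0.095 at 24 h after 1/3PH (SD, n = 3 each). No neighbours among these 7 groups differed by more than the larger of their SDs. A step of 0.34 then led down to 0.98 ± 0.036 at 24 h after 2/3PH (SD, n = 3), and this step was larger than either SD. The lowest group was 36 h after 2/3PH with 0.82 ± 0.18 (SD, n = 3), and its distance of 0.17 from 24 h was within its SD.

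The order for miR-26b began with 0.83 ± 0.081 at 6 h after 2/3PH (SD, n = 3), 0.77 ± 0.012 at 6 h after 1/3PH (n = 2) and 0.74 ± 0.037 in normal liver (n = 3). It went on with 0.72 ± 0.024 at 36 h after 1/3PH, 0.70 ± 0.13 at 12 h after 2/3PH, 0.68 ± 0.17 at 12 h after 1/3PH and 0.63 ± 0.12 at 24 h after 1/3PH (SD, n = 3 each). As for miR-26a, these 7 groups followed each other within their SDs. The 2 late 2/3PH groups closed the order, with 0.48 ± 0.15 at 36 h and 0.47 ± 0.084 at 24 h (SD, n = 3 each). The step of 0.15 above them was just larger than the SDs beside it, and these 2 groups did not differ from each other beyond their SD.

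The late hours, 24 and 36 h, hold the wave of hepatocyte replication known to follow 2/3PH, and the early hours, 6 and 12 h, at most its start. Both members of the family fell from the early to the late hours after 2/3PH, miR-26a to 68.5% and miR-26b to 81.7% of its early level. For miR-26a the change was -0.55 log2 (SE 0.079, 95% interval -0.71 to -0.38, adjusted p = 2.13e-05 by limma), and each of the 6 late arrays lay under each of the 6 early ones. For miR-26b it was -0.29 (SE 0.074, 95% interval -0.45 to -0.14, adjusted p = 0.00432), and replicate 1 at 12 h, at 0.58, was the early array inside the late range. This was the comparison in which most of the array moved: 50 of 144 miRNAs tested passed (34.7%), 23 lower and 27 higher, with a median change of 0.04, so that a call of 2 of 2 members is to be read against that share. The count of 50 became 4 to 60 over the other settings and 42 to 49 with 1 array left out. RNA was taken from whole tissue, so fewer cells of a type that carries miR-26 and less miR-26 per cell cannot be told apart.

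The direction of both members in this comparison was the same under every scaling tried. Without any scaling between arrays the median of all miRNAs shifted by 0.14 and the calls were lost, with -0.44 for miR-26a and -0.19 for miR-26b. Relative to that median the changes were -0.58 and -0.33. A factor per array moves all miRNAs alike, so this value is by construction the same with any such scaling and is no separate evidence. With normexp, which is not such a factor, it was -0.35 and -0.15, and with quantile normalization -0.58 and -0.29. The calls were also lost with the 75th percentile over all probes (-0.62 and -0.36), and that of miR-26b with normexp background correction (-0.18). With slide as a random block the values were -0.54 (adjusted p = 0.000165) and -0.29 (adjusted p = 0.0128), and with scan day as a fixed block they were -0.49 (adjusted p = 0.000237) and -0.24 (adjusted p = 0.0216). With slide as a fixed block this comparison could not be estimated, because slide 2 held only 24 h after 2/3PH and 36 h after 1/3PH, and both groups were on no other slide.

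After 1/3PH, an operation that causes little replication, the same contrast of late and early hours gave no call for the family. The level of miR-26a was 98.5% and that of miR-26b 96.6% of the early level. The differences were -0.02 for miR-26a (95% interval -0.20 to 0.15, adjusted p = 0.896) and -0.05 for miR-26b (95% interval -0.22 to 0.11, adjusted p = 0.743). By limma 0 of 2 members passed, at an adjusted p or at an unadjusted p under 0.05, while 14 of 144 miRNAs passed (9.72%) and 22 did at an unadjusted p under 0.05. This background leaned on single arrays of 1/3PH: it was 0 without replicate 2 at 6 h, 9 without replicate 1 at 6 h or the dim array, 7 and 6 without replicates 1 and 2 at 24 h, and 8 without replicate 2 at 36 h. The sign of these small differences is not settled: without scaling, they were 0.34 and 0.32 beside a median shift of 0.29 for all miRNAs, and relative to the median they were 0.06 and 0.03 with any factor per array. Without the dim array they were -0.078 and -0.10 (adjusted p = 0.713 and 0.512), and miR-26a gave 0.035 without replicate 1 at 12 h and 0.0022 without replicate 1 at 24 h after 1/3PH.

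Whether the late change differed between the operations was tested directly, as the late minus early difference after 2/3PH less that after 1/3PH. For miR-26a this interaction was -0.52 (SE 0.11, 95% interval -0.76 to -0.28, adjusted p = 0.00727), the rank of 3 from the lowest among 144 miRNAs. For miR-26b it was -0.24 (SE 0.11, 95% interval -0.47 to -0.01, adjusted p = 0.215, unadjusted p = 0.0383), so a difference between the operations was not shown for this member. Of all miRNAs, 10 of 144 passed (6.94%), 2 lower and 8 higher, and 1 of 2 members was among them. The count was 17 without replicate 1 at 12 h after 2/3PH and ran from 7 to 17 over the arrays left out. The value for miR-26a was -0.53 with slide as a random block (adjusted p = 0.00937) and -0.47 with scan day as a block (adjusted p = 0.0164). With slide as a fixed block it was -0.60, and the call was lost (adjusted p = 0.0562), as it was without scaling (-0.79), with the 75th percentile over all probes (-0.23) and with normexp (-0.37). Without the dim array the values were -0.47 for miR-26a (adjusted p = 0.00402) and -0.19 for miR-26b (adjusted p = 0.289), and miR-26a passed with each of 23 arrays left out in turn. For miR-26b the blocks gave -0.24 (slide, random, adjusted p = 0.190), -0.28 (slide, fixed, adjusted p = 0.350) and -0.19 (scan day, adjusted p = 0.368), and normexp gave -0.11. The sign for miR-26b turned with the 75th percentile over all probes as the scale factor (0.05), where the median of all miRNAs shifted by 0.36. Relative to the median of all miRNAs the value was -0.31 with any factor per array and -0.36 with normexp, where the median shifted by 0.25. Bright local backgrounds distorted 4 arrays in normexp, and with these backgrounds replaced the call of miR-26a was not lost.

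**Figure D2:**
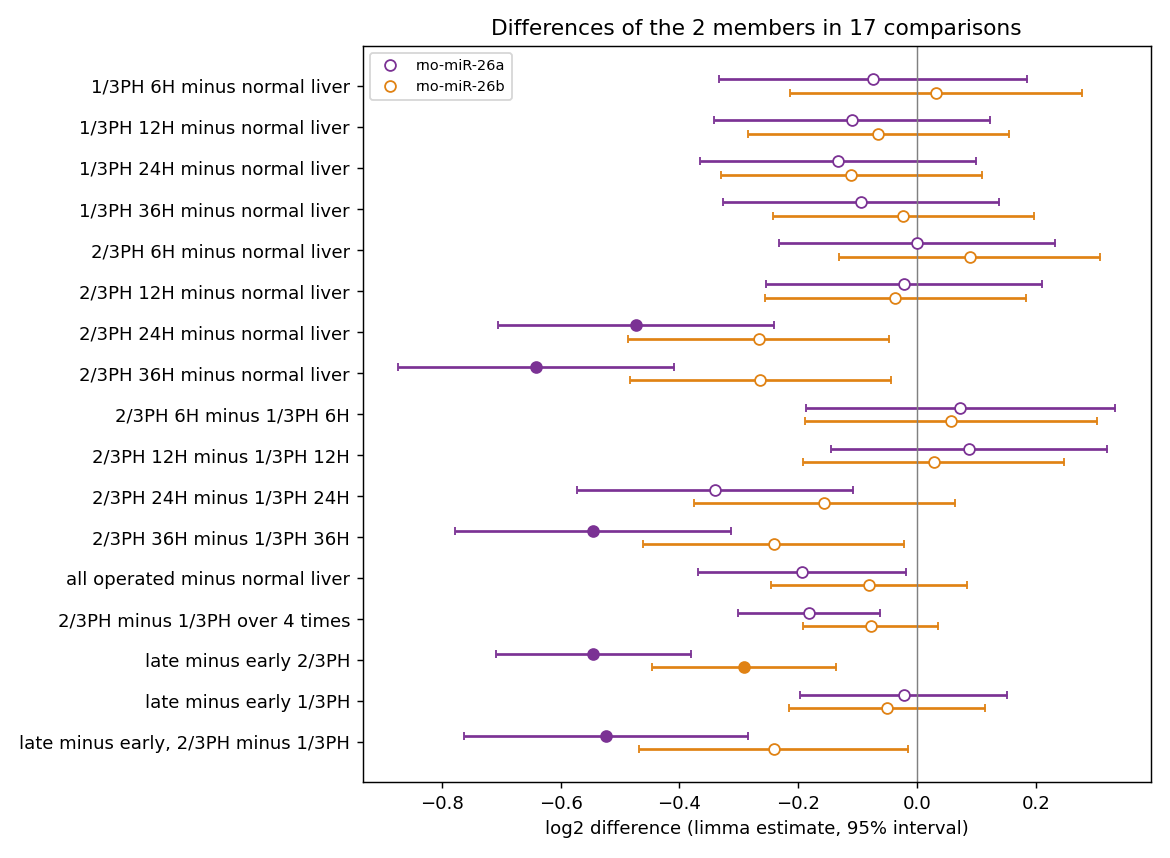
Differences of miR-26a (purple) and miR-26b (orange) in 17 comparisons, as log2 estimates from limma with 95% intervals, with filled points for calls at an adjusted p under 0.05 and open points for the others. Both members are called for late minus early after 2/3PH (-0.55 and -0.29), and miR-26a alone for 24 h and 36 h after 2/3PH against normal liver (-0.47 and -0.64), for 36 h against 1/3PH (-0.55) and for the interaction (-0.52), under the scaling described.

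Against normal liver, the comparison that shows the state of the remnant relative to an unoperated organ, miR-26a fell at both late times after 2/3PH. No call was made at the other 6 combinations of time and operation, which does not show that the levels there equalled normal. Its level at 24 h was 72.1% of normal, a difference of -0.47 (SE 0.11, 95% interval -0.70 to -0.24, adjusted p = 0.0106, n = 3 and 3). At 36 h it was 64.1% of normal, a difference of -0.64 (SE 0.11, 95% interval -0.87 to -0.41, adjusted p = 0.000402, n = 3 and 3). At each time 3 of 3 operated rats had less miR-26a than any normal rat. With so few rats this separation alone says little: the 1/3PH rats at 6 h and at 24 h also all lay under the normal rats, by a small margin and without a call (-0.07 and -0.13). The background was 26 of 144 miRNAs called at 24 h (18.1%) and 27 of 144 at 36 h (18.8%), and 1 of 2 members was called at each time. At 24 h the count was 9, 15 and 11 without replicates 1, 2 and 3 of 2/3PH and 14 without replicate 3 of normal liver, and at 36 h it ran from 21 to 34 over the arrays left out. Over the other settings it ran from 0 to 25 at 24 h and from 0 to 33 at 36 h: it was 0 and 0 with the 75th percentile over all probes, 0 and 1 without scaling and 0 and 3 with normexp.

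miR-26b stood at 83.1% of normal at 24 h and 83.3% at 36 h after 2/3PH, and neither value passed. The differences were -0.27 (95% interval -0.49 to -0.05, adjusted p = 0.0875) and -0.26 (95% interval -0.48 to -0.04, adjusted p = 0.0823), with unadjusted p = 0.0200 and 0.0211. In both groups 3 of 3 rats lay under all normal rats. Over 16 alternatives the adjusted p ran from 0.0327 to 0.997 at 24 h, with 1 under 0.05, and from 0.0516 to 0.984 at 36 h, with 0 under 0.05. With scan day as a fixed block the values were -0.37 (adjusted p = 0.0327) and -0.20 (adjusted p = 0.191), and with slide as a random block -0.28 (adjusted p = 0.131) and -0.27 (adjusted p = 0.0680). Slide as a fixed block gave -0.33 at 36 h (adjusted p = 0.185), and normexp gave -0.21 and -0.083. Of the arrays left out in turn, 1 of 6 at 36 h led to a pass, replicate 3 of 2/3PH (-0.34, adjusted p = 0.0433), and 0 of 6 did at 24 h.

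Scanning took 3 days with 1 normal liver on each, so the late groups can also be set against the normal liver of their own day. For miR-26a the 24 h group of 2/3PH, all on day 1, was lower than that day's normal liver by a mean difference of -0.44, and at 36 h the differences were -0.70 on day 2 (2 arrays) and -0.51 on day 3 (1 array). For miR-26b the corresponding differences were -0.24, -0.33 and -0.15. Within slide 3, the 2 arrays of 36 h after 2/3PH gave a mean of 0.72 for miR-26a beside 1.42 in the normal liver, and 0.40 for miR-26b beside 0.73. All 24 h arrays of 2/3PH sat on slide 2, which held no normal liver, so for them slide and group could be compared only with 36 h after 1/3PH on the same slide: miR-26a averaged 0.98 against 1.36, and miR-26b 0.47 against 0.72. With the fit restricted to the first scan day the value at 24 h for miR-26a was -0.44, and the call was lost (adjusted p = 0.0540, with 1 normal liver left, which is assumed to vary like the other groups). The call at 24 h was also lost with normexp background correction (-0.40). Both calls were lost without scaling (-0.55 and -0.80) and with the 75th percentile over all probes (-0.93 and -0.73), and relative to the median of all miRNAs they were -0.52 and -0.70, by construction the same with any factor per array. With normexp the values relative to that median were -0.46 and -1.09, the second with a median shift of 0.63. With slide as a random block the values were -0.48 and -0.64 (adjusted p = 0.0264 and 0.000468), and with scan day as a block -0.53 and -0.58 (adjusted p = 0.00649 and 0.00159). Slide as a fixed block could be fitted at 36 h and gave -0.70 (adjusted p = 0.0107).

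At the other 6 times and operations limma called 0 of 2 members against normal liver, at an adjusted p or at an unadjusted p under 0.05. At 6 h miR-26a differed from normal liver by -0.07 in the 1/3PH group, with 0.03 for miR-26b. In the 2/3PH group at 6 h the difference was -0.00030 for miR-26a, with 0.09 for miR-26b. The background there was 0 of 144 miRNAs called after either operation (0% and 0%), with 8 and 15 at an unadjusted p under 0.05. With the 75th percentile over all probes it was 39 after 1/3PH, all higher, where the median of all miRNAs shifted by 1.24. The count became 1 after 1/3PH without replicate 1 of that group, which holds only 2 arrays, and 5 after 2/3PH without replicate 1 of normal liver.

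At 12 h the differences were -0.11 and -0.06 after 1/3PH, where 6 of 144 miRNAs were called (4.17%) and 38 at an unadjusted p under 0.05. After 2/3PH at 12 h they were -0.02 and -0.04, where 10 of 144 were called (6.94%) and 26 at an unadjusted p under 0.05. The count after 1/3PH was 12, 1 and 0 without replicates 1, 2 and 3 of normal liver and 13 without replicate 3 of 1/3PH, and that after 2/3PH was 0 without replicate 2 or 3 of normal liver or replicate 2 of 2/3PH. The 12 h values after 1/3PH lean on the dim array: without it they were 0.0029 for miR-26a and 0.034 for miR-26b. After 2/3PH, miR-26a turned to 0.0088 at 12 h and 0.031 at 6 h without replicate 2 of normal liver. It also turned without replicate 1 at 12 h (0.028, with 0.025 for miR-26b) and without replicate 2 at 6 h (0.045). These differences are near 0, and their signs carry no direction for the family. At 24 h and 36 h after 1/3PH the differences were -0.13 and -0.09 for miR-26a. For miR-26b they were -0.11 and -0.02 at these times, with 1 and 0 of 144 miRNAs called (0.694% and 0%) and 16 and 7 at an unadjusted p under 0.05. The single call at 24 h was lost without any one of the normal livers and without replicate 1 or 2 of 1/3PH. The interval that reached lowest among these, for miR-26a at 24 h after 1/3PH, ran from -0.36 to 0.10. The estimate at 36 h after 2/3PH (-0.64, with its own interval from -0.87 to -0.41) lay outside it. For miR-26b at 24 h after 1/3PH the interval ran from -0.33 to 0.11. It held both late 2/3PH estimates of that member (-0.27 and -0.26). All 8 comparisons use the same 3 normal livers and are not independent of each other.

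With 1/3PH as the control, which shares surgery and a loss of liver mass, though a smaller one, miR-26a differed between the operations at 36 h and miR-26b did not pass. The level of miR-26a after 2/3PH was then 68.5% of that after 1/3PH, a difference of -0.55 (SE 0.11, 95% interval -0.78 to -0.31, adjusted p = 0.00333, n = 3 and 3), lower in 3 of 3 rats. For miR-26b it was 84.6%, a difference of -0.24 (95% interval -0.46 to -0.02, adjusted p = 0.155, unadjusted p = 0.0333), which did not pass although its groups did not overlap. The background was 22 of 144 miRNAs (15.3%), with 1 of 2 members called, and was 7 without replicate 1 of 2/3PH and 11 and 8 without replicates 2 and 3 of 1/3PH. With scan day as a fixed block the value for miR-26a was -0.42 and the call was lost (adjusted p = 0.0782), and with slide as a random block it was -0.53 (adjusted p = 0.0174). The call was also lost without scaling (-0.68) and with normexp (-0.37). For miR-26b scan day as a block gave -0.074 (adjusted p = 0.810), slide as a random block -0.23 (adjusted p = 0.341) and normexp -0.069. Slide as a fixed block could not be fitted for this comparison, since the 36 h arrays of 1/3PH were all on slide 2. They were all scanned on day 1, and those of 2/3PH were on slides 3 and 6 and scanned on days 2 and 3. At this hour the operations thus shared neither a slide nor a scan day and cannot be told apart from them. The value with scan day as a block rests on other groups that link the days. The direction held for miR-26a under every scaling, but with the 75th percentile over all probes its value was -0.060 and that of miR-26b turned to 0.24, where the median of all miRNAs shifted by 0.36. Relative to the median of all miRNAs the values were -0.42 and -0.12 with any factor per array, and -0.88 and -0.58 with normexp, where the median shifted by 0.51. Replicate 1 of each 36 h group was among 4 arrays that bright local backgrounds distorted in normexp. With those backgrounds replaced the call of miR-26a was not lost.

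At 24 h miR-26a after 2/3PH was 79% of its level after 1/3PH, a difference of -0.34 (SE 0.11, 95% interval -0.57 to -0.11, unadjusted p = 0.00639) that did not pass the adjustment (adjusted p = 0.115), although 3 of 3 rats lay under all 1/3PH rats. For miR-26b the difference was -0.16 (95% interval -0.38 to 0.06, adjusted p = 0.808). By limma 0 of 2 members were called, 1 of 2 had an unadjusted p under 0.05, and the background was 4 of 144 miRNAs (2.78%), with 15 at an unadjusted p under 0.05. It was 1 without replicate 2 or 3 of 1/3PH or replicate 1 of 2/3PH, and 2 without replicate 2 of 2/3PH. With quantile normalization miR-26a passed at 24 h (-0.35, adjusted p = 0.0467).

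At 6 h and 12 h the operations gave no call for the family. The differences of miR-26a were 0.07 and 0.09, and those of miR-26b 0.06 and 0.03. By limma 0 of 144 miRNAs were called at each of these times (0% and 0%), with 3 and 9 at an unadjusted p under 0.05, neither member among them. With the 75th percentile over all probes 89 were called at 6 h, all lower, where the median of all miRNAs shifted by -1.32, and 0 were under each other setting. At 6 h, without scaling, they were -0.11 and -0.12, where the median of all miRNAs shifted by -0.23, and relative to that median they were 0.13 and 0.11 with any factor per array. With normexp they were 0.0011 and 0.080, and relative to the median -0.53 and -0.45, where the median shifted by 0.53. Relative to the median, the differences were -0.16 and 0.10 in the deposited table. At 12 h, with quantile normalization, they were -0.085 and -0.054, and relative to the median -0.14 and -0.11, beside 0.19 and 0.13 with any factor per array. Without the dim array the 12 h values were -0.025 and -0.070, and without replicate 2 at 12 h after 2/3PH miR-26b gave -0.042.

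Averages over the times use more arrays and were given for the same members. Over the 4 times, miR-26a after 2/3PH was 88.2% of its level after 1/3PH (-0.18, SE 0.057, 95% interval -0.30 to -0.06, adjusted p = 0.0725), and miR-26b was 94.7% (-0.08, SE 0.054, adjusted p = 0.522). The background was 5 of 144 miRNAs (3.47%) and limma called 0 of 2 members, with 1 of 2 at an unadjusted p under 0.05. With 1 array left out the background ran from 2 to 9 miRNAs, with 9 without the dim array. Without that array the value of miR-26a was -0.21 and passed (adjusted p = 0.0219), and that of miR-26b was -0.10 (adjusted p = 0.233). The mean of all 8 operated groups less normal liver was -0.19 for miR-26a (SE 0.084, adjusted p = 0.210) and -0.08 for miR-26b (SE 0.079, adjusted p = 0.568), and without the dim array -0.18 and -0.068 (adjusted p = 0.135 and 0.516). Here 1 of 144 miRNAs was called (0.694%), 27 passed at an unadjusted p under 0.05, and of the members 0 of 2 and 1 of 2 did. The single call became 0 to 8 over the arrays left out, with 8 without replicate 1 of normal liver.

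The members have the same seed but are made from separate genes, and whether they responded alike was asked with the difference of their log2 values on each array, which a scale factor per array cannot alter. Set to 0 at the mean of the normal livers, this difference was -0.0013, 0.021 and -0.019 in the 3 normal rats. At 36 h after 2/3PH it was -0.41, -0.38 and -0.34, and at 24 h it was -0.07, -0.27 and -0.27. So in all 3 rats at 36 h miR-26a was lower relative to miR-26b than in any normal rat, and the 24 h rats were spread. In the other groups the means lay between -0.11 ± 0.035 at 6 h after 1/3PH (SD, n = 2) and 0.01 ± 0.087 at 12 h after 2/3PH (SD, n = 3), with 1 rat at 6 h after 2/3PH at -0.27. The group means were -0.38 ± 0.036 at 36 h and -0.21 ± 0.12 at 24 h after 2/3PH (SD, n = 3 each).

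Between the 9 groups lay 72.4% of the sum of squares of this difference, and a permutation test over the 26 arrays gave p = 0.00275 (adjusted p = 0.00825 over 3 tests, 100000 resamples). By this test the members did not change by the same factor in all groups. It takes no account of slides and scan days, to which groups were tied. With values compared and permuted within scan days the share was 71.4% and passed (permutation p = 0.0214, adjusted p = 0.0428). Within slides it was 60.7% and did not pass (permutation p = 0.121, adjusted p = 0.156). The adjustment within blocks covered fewer than the 3 tests and was thus milder, since the comparison of the operations was left out. Failing to pass within slides does not show that the groups were alike. Groups were tied to slides, as 24 h after 2/3PH was to slide 2. A difference between groups and one between slides thus cannot be fully told apart. Over 11 alternatives, those within blocks included, the adjusted p ran from 9.00e-05 to 0.156, with 10 under 0.05. Operated less normal livers gave -0.11, which did not pass in an exact permutation test over all 2600 choices (two-sided p = 0.194, adjusted p = 0.194), nor within scan days (-0.16, adjusted p = 0.134) or within slides (-0.14, adjusted p = 0.156). 2/3PH less 1/3PH gave -0.10 with labels permuted within each hour, over all 80000 choices (exact permutation p = 0.0584, adjusted p = 0.0876). This test was not run within days or slides. At 36 h the operations shared neither, so no labels could be exchanged there, while at 6, 12 and 24 h they shared a scan day. The comparisons of operated with normal livers and of 2/3PH with 1/3PH did pass where the values had been normalized by quantiles, at -0.24 and -0.17 (permutation, adjusted p = 0.0296 and 0.00382), and in the deposited table, at -0.31 and -0.20 (adjusted p = 0.0108 and 0.00112). The second also passed without replicate 3 at 6 h after 2/3PH (-0.12, adjusted p = 0.0473). Without the dim array the 3 results were 72.6% (adjusted p = 0.0113), -0.11 (adjusted p = 0.203) and -0.11 (adjusted p = 0.0821). A test of this difference can show unequal change and not that miR-26b stayed at its level.

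**Figure D3:**
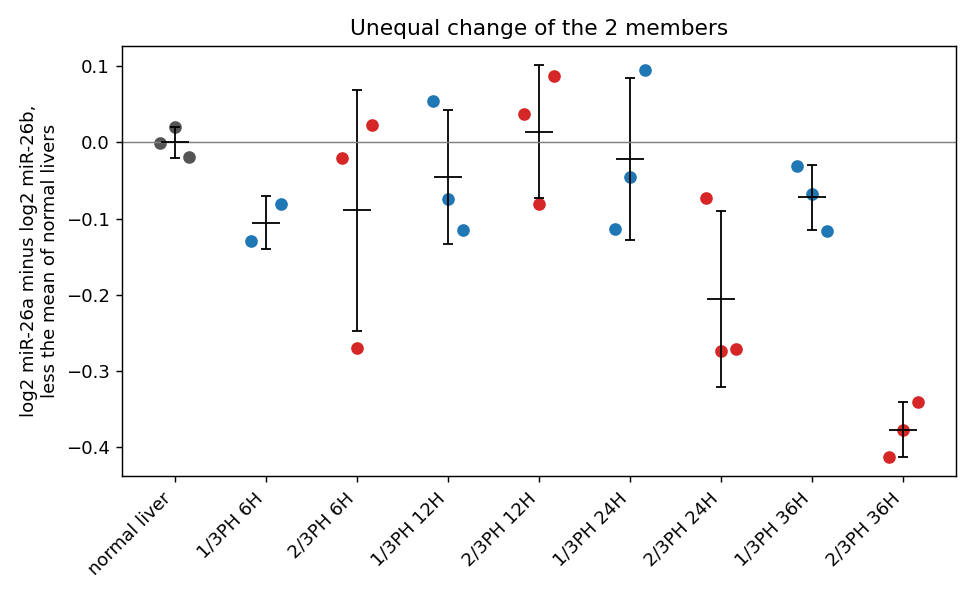
Log2 miR-26a minus log2 miR-26b on each array, less the mean of the normal livers, with a point per rat and bars for the group mean and SD. The 3 rats at 36 h after 2/3PH lie between -0.41 and -0.34, under every other rat.

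Each member's value is a sum of 2 probes, so the probes were also read one by one. At 24 h after 2/3PH the brighter probe of miR-26a differed from normal liver by -0.49 and the dimmer one by -0.42, and at 36 h by -0.65 and -0.61. The brighter probe of miR-26b differed by -0.26 and the dimmer one by -0.28 at 24 h, and by -0.23 and -0.31 at 36 h. Each of the 4 probes was thus lower in both late 2/3PH groups, and both probes of miR-26a lay further from normal than either probe of miR-26b. Across the 26 arrays the log2 values of the probe pair correlated with r = 0.961 for miR-26a and r = 0.895 for miR-26b (Spearman's rho 0.850 and 0.819). Both probes of a pair share the array, its scale factor and the RNA sample. Whether the probes of one member also bind the other was not tested, so the members may not be fully separate measurements.

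**Figure D4:**
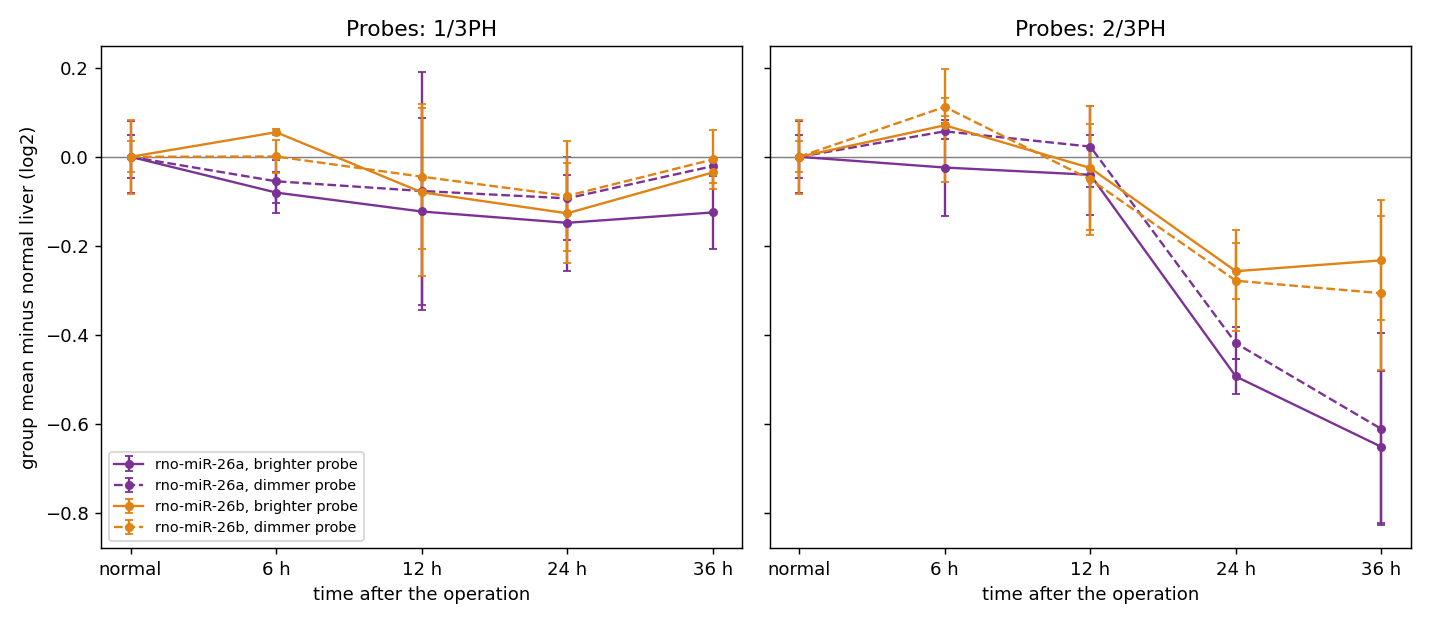
Group mean of each of the 4 probes minus its mean in normal liver (log2, bars SD) at 6, 12, 24 and 36 h after 1/3PH (left) and 2/3PH (right). At 36 h after 2/3PH the probes of miR-26a stand at -0.65 and -0.61 and those of miR-26b at -0.23 and -0.31.

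The miRNAs whose levels over the 26 arrays were most like those of the family were the same 3 for both members, out of 80 others detected on all arrays. rno-miR-10a-5p had a Pearson r of 0.85 with miR-26a and 0.85 with miR-26b, rno-miR-511* had 0.80 and 0.75, and rno-miR-146a, a miRNA of immune cells, had 0.69 and 0.71. The members correlated with each other at r = 0.842 (rho 0.821), which put each of them at rank 2 of 81 for the other, after rno-miR-10a-5p. The least alike was rno-miR-21, a miRNA known to increase in growing liver, with r of -0.79 and -0.70. All points share their arrays, scale factors and groups, and the 6 late 2/3PH arrays take part in each value, so these are descriptions.

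Of these 3, 2 were matched by name to an entry of the RefSeq table (build GRCr8), and rno-miR-511* was not matched by its name. The 2 entries are shown here to set their seeds beside that of miR-26, with capitals for bases 2 to 8.
rno-miR-10a-5p: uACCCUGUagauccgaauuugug
rno-miR-146a-5p: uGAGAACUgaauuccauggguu
They lie at chr10:81779730-81779752 on the plus strand and chr10:28350053-28350074 on the minus strand, and 0 of these 2 have the seed UCAAGUA. From the early to the late hours after 2/3PH rno-miR-10a-5p changed by -0.50 (SE 0.071, adjusted p = 2.13e-05), rno-miR-511* by -0.78 (SE 0.14, adjusted p = 0.000224) and rno-miR-146a by -0.60 (SE 0.13, adjusted p = 0.00140). rno-miR-21 rose by 0.93 (SE 0.13, adjusted p = 2.13e-05). After 1/3PH none of these 4 was called in the same contrast, with -0.15, -0.24, -0.04 and 0.25.

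**Figure D5:**
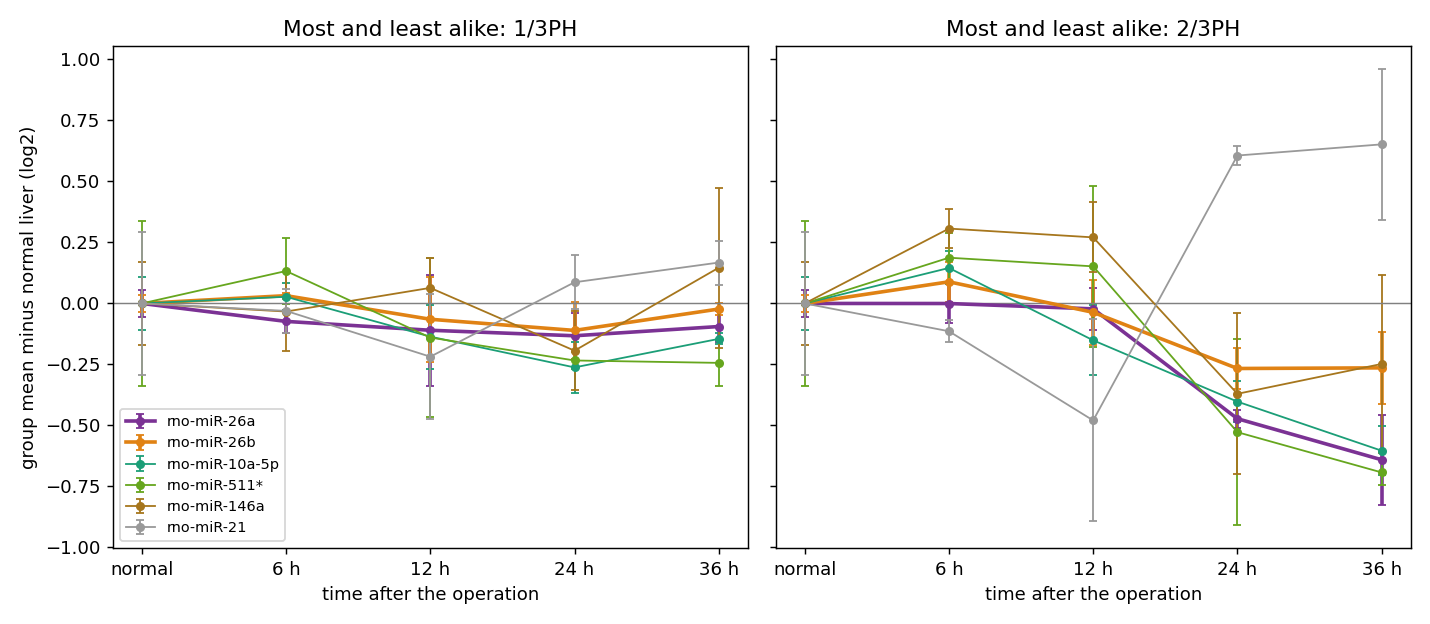
Group means minus normal liver (log2, bars SD) of both miR-26 members (thick lines), the 3 miRNAs most like them and the one least like them, by hours after 1/3PH (left) and 2/3PH (right). At 36 h after 2/3PH miR-26a stands at -0.64, miR-26b at -0.26, rno-miR-10a-5p at -0.60, rno-miR-511* at -0.69, rno-miR-146a at -0.25 and rno-miR-21 at 0.65.

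Because miR-26 is known for repressing Ezh2 and G1 cyclins, other miRNAs known to act on the same targets were read beside it in the contrast of late and early hours after 2/3PH. Of the 11 tested miRNAs known to act on Ezh2 (the miR-101 and let-7 families and others), 2 rose and 2 fell, with a median of -0.09 beside 0.04 for all 144, of which 34.7% passed. Over 27 other settings, arrays left out included, 0 to 2 were called higher and 0 to 6 lower. The largest rise was that of rno-miR-101b (0.74, adjusted p = 3.76e-05) and the largest fall that of rno-let-7e (-0.42, adjusted p = 0.00117). Against normal liver limma called 0 of the 11 at 24 h and 0 at 36 h after 2/3PH, with 0 and 1 (rno-let-7e) at an unadjusted p under 0.05. rno-miR-101b had a mean of 0.42 in normal liver, -0.18 and -0.25 at 6 and 12 h and 0.52 and 0.53 at 24 and 36 h, so that its early levels were the low ones. rno-miR-101b and rno-let-7e were also called late against early after 1/3PH, where miR-26 was not (0.55, adjusted p = 0.00794, and -0.32, adjusted p = 0.0423). In that contrast 27 other settings called 0 to 2 of the 11 higher and 0 to 4 lower, so each of these calls was lost under some setting. Of the 5 tested miRNAs known to act on G1 cyclins, 2 rose and 2 fell, with a median of 0.30: rno-miR-34a rose most (1.26, adjusted p = 4.24e-06) and rno-miR-195 fell most (-0.39, adjusted p = 0.0204). The 27 other settings called 1 to 3 of them higher and 0 to 2 lower. Of 9 tested members of the miR-17 and miR-106b clusters, which are known for promoting entry into S phase, 8 rose and 0 fell. rno-miR-18a, with the highest estimate, was not above the array's lowest signal well above background, here the lowest usable signal, on any of the 6 early arrays. It was above it on all 6 late ones, and over the series it was at that signal on 16 of 26 arrays (rno-miR-17-5p on 10). Its call, counted among the 8, and its fitted difference (1.39) thus depend on that signal, and the size of its change is not known. On 1 or 2 of the early arrays rno-miR-17-5p, rno-miR-19a and rno-miR-93 were at that signal too, so no median is given for the list. Beside these 8 of 9, 27 of all 144 were called higher, and the 27 other settings called 1 to 9 of the clusters higher and 0 lower. The counts describe the lists, which were not tested as lists. No miRNA on these lists has the seed of miR-26.

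Markers of other cells were read in the same contrast, since a remnant liver may hold another mix of cells. Of 4 tested leukocyte miRNAs 0 rose and 2 fell, beside 27 and 23 of all 144: rno-miR-146a (-0.60) and rno-miR-150 (-0.51, with 1 early array at the lowest usable signal, so that the fall may be smaller). The median was -0.36, the direction in which miR-26 moved, and 0 to 2 were called lower over the 27 other settings. Against normal liver limma called 2 of 4 lower at 24 h and 1 of 4 at 36 h after 2/3PH, where miR-26a was called too. The medians were -0.48 and -0.42, and 12 and 11 of all 144 were lower. At each of these times 0 to 2 leukocyte miRNAs were called lower over 22 other settings. Their summed scaled signal, in which rno-miR-146a was the most abundant, was 0.983, 1.14 and 0.931 in the normal livers. It was 1.08, 0.937 and 0.995 at 6 h and 0.851, 1.13 and 1.10 at 12 h after 2/3PH. At 24 h it was 0.672, 0.837 and 0.676, and at 36 h 0.831, 0.849 and 0.879, so that the 24 h values lay under all values at 6 and 12 h. All values at 24 and 36 h after 2/3PH also lay under those of the normal livers. After 1/3PH the sum was 1.05 and 1.07 at 6 h, 0.880, 1.07 and 0.934 at 12 h, 0.792, 0.883 and 1.03 at 24 h, and 1.20, 0.813 and 0.900 at 36 h. Some of these values, at 12, 24 and 36 h, also lay under the normal livers. The leukocyte marker rno-miR-142-5p was detected on no array, and rno-miR-155 is not on the array. The part of leukocytes in the fall of miR-26 was not tested.

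Of 3 tested miRNAs of biliary epithelium 3 rose, beside 27 of all 144, the direction opposite to miR-26, and 0 to 3 were called higher over the 27 other settings. rno-miR-200b, the one detected on all arrays, rose by 0.65. rno-miR-429 was at the lowest usable signal on 2 of the 6 early arrays and on 0 late ones, and rno-miR-200a on 3 early and 1 late, so no size is given for these. Against normal liver limma called 2 of 3 higher at 24 h and 3 of 3 at 36 h after 2/3PH, beside 14 and 16 of all 144. At 12 h after 1/3PH, where miR-26 was not called, 2 of 3 were higher too. Over 22 other settings 0 to 2 biliary miRNAs were called higher at 24 h and 0 to 3 at 36 h after 2/3PH. Their summed signal, with rno-miR-200b the most abundant, was 0.288, 0.283 and 0.117 in normal liver and 0.130, 0.179 and 0.283 at 6 h after 2/3PH. It was 0.343, 0.315 and 0.327 at 12 h, 0.487, 0.342 and 0.478 at 24 h, and 0.651, 0.595 and 0.427 at 36 h after 2/3PH. After 1/3PH, where miR-26 gave no call, the sum was 0.173 and 0.135 at 6 h, 0.466, 0.519 and 0.504 at 12 h, 0.424, 0.480 and 0.413 at 24 h, and 0.50, 0.314 and 0.198 at 36 h. The biliary markers rno-miR-200c and rno-miR-141 were detected on no array, and the part of biliary cells in the result was not tested.

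Hepatocyte miRNAs, with rno-miR-122 the most abundant on the list, were detected on all arrays, as the label liver requires. By limma 0 of 3 were called from early to late after 2/3PH (median 0.07), nor was any at an unadjusted p under 0.05, and their summed scaled signal was 174 ± 15.7 in normal liver, 183 ± 10.4 at 6 h, 187 ± 14.4 at 12 h, 163 ± 15.6 at 24 h and 175 ± 11.2 at 36 h after 2/3PH (SD, n = 3 each), so that both late means lay under both early ones. After 1/3PH it was 178 ± 7.20 at 6 h (SD, n = 2), and 188 ± 11.7, 173 ± 22.5 and 180 ± 15.9 at 12, 24 and 36 h (SD, n = 3 each). The single tested red cell miRNA (0.04) and the single tested endothelial one (-0.11) gave no call in limma, nor did the 3 of stellate cells (median 0.13), also at an unadjusted p under 0.05. Over the 27 other settings up to 1 hepatocyte and up to 1 endothelial miRNA were called lower. Against normal liver 1 of 3 hepatocyte miRNAs, rno-miR-192, was called lower at 24 h after 2/3PH (-0.29, adjusted p = 0.0374), where miR-26a was called too and 12 of all 144 were lower, and 1 of 3 was also called lower at 12 h after either operation, where miR-26 was not. The part of these cells in the fall of miR-26 was not tested.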

How the data were processed

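Right-lobe liver RNA of 26 male rats was measured on single-colour rat miRNA arrays. The authors extracted the fluorescence intensity of each spot with Agilent Feature Extraction 10.7.3.1, background subtracted and not normalized between arrays. A second deposited file holds log2 values that had already been normalized between arrays, and served as an alternative. Unmarked spots of a probe were averaged, the probes of a miRNA summed, and each array divided by its 75th percentile over 109 probes well above background on all arrays. Lower signals were raised to the array's lowest signal well above background, and log2 was taken.

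Differences were tested with limma 3.58.1 (lmFit and eBayes, under R 4.3.3 with the package data.table in version 1.17.8) in 1 fit of 26 arrays and 9 groups, for 17 contrasts. It covered 144 miRNAs, those that some group showed as detected on each of its arrays, with Benjamini-Hochberg adjustment within a contrast (call at an adjusted p under 0.05). Log2 miR-26a minus log2 miR-26b was tested two-sided by permutation over arrays. Tables and plots were made in Python 3.11.15 with matplotlib 3.10.9, scipy 1.17.1, pandas 2.3.3 and numpy 2.4.6. The procedure was tested on simulated data.

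The members and lists were chosen with earlier results of these data known. Named miRNAs are the members, their passenger arms, the 3 with the highest Pearson r with each member, from each list the largest rise and fall called late against early after 2/3PH, and any with the miR-26 seed. rno-miR-17-5p, rno-miR-19a, rno-miR-21, rno-miR-93, rno-miR-150, rno-miR-192, rno-miR-200a and rno-miR-200b were named after their values were seen.

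Alternatives, each used where it applies and can be fitted, were normexp (offset 50), quantile normalization, a 75th percentile taken over all probes, unscaled signals, the brightest probe, the total gene signal of the scanner software, the deposited table, stricter and looser detection filters, a trend in eBayes, only the compared groups in the fit, scan day or slide as a block, and each array left out in turn. Added after seeing the data were scan day and slide as blocks for the member difference, the dimmer probe, the first scan day alone, and normexp with bright local backgrounds replaced. Each contrast had 14 to 17 of these besides arrays left out, and each test of the member difference had 9 to 11, since filters and eBayes options do not apply to it. Slide as a fixed block could be fitted for 10 of 17 contrasts.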

Additional observations from a re-analysis of the deposited data

Results flagged for a closer look

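The late minus early difference of rno-miR-26a was not the same after the 2 operations: the difference between them was -0.52 log2 (adjusted p = 0.00727 by limma). It came from -0.55 after 2/3PH beside -0.02 after 1/3PH, and with slide as a fixed block it was -0.60 (adjusted p = 0.0562).

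By a test over all arrays the response of the members was not the same in all groups, and within slides this did not pass. Between the 9 groups lay 72.4% of the sum of squares of log2 miR-26a minus log2 miR-26b (permutation test, adjusted p = 0.00825). The share was 60.7% within slides (permutation, adjusted p = 0.156) and 71.4% within scan days (permutation, adjusted p = 0.0428), both adjusted over fewer tests. The lowest group mean, -0.38 relative to normal liver, was at 36 h after 2/3PH. The cause was not tested for either result.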

How the results depend on the processing

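Of 989 values recomputed under an alternative, 895 kept their direction and their side of the threshold, 58 turned, 21 lost a call and 15 gained one; the cause was not tested. Both members were detected on all arrays.

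Without scaling the calls of miR-26a were lost, at -0.55 and -0.80 for 24 h and 36 h of 2/3PH against normal, -0.68 for 36 h against 1/3PH, -0.44 for late minus early after 2/3PH (miR-26b -0.19) and -0.79 for the interaction. The signs turned for 2/3PH against 1/3PH at 6 h (-0.11 and, for miR-26b, -0.12), for miR-26b at 6 h of 2/3PH against normal (-0.085) and for late minus early after 1/3PH (0.34 and 0.32). A factor per array moves all miRNAs alike: their median shifted by -0.23 in the first of these and by 0.29 in the last, and relative to it the values were 0.13 and 0.11, and 0.058 and 0.029, by construction the same with any such factor. With the 75th percentile over all probes the same calls were lost, at -0.93, -0.73, -0.060, -0.62 (miR-26b -0.36) and -0.23. Signs turned for miR-26a at 6 h of 1/3PH against normal (1.11), for 2/3PH against 1/3PH at 6 h (-1.19 and -1.21) and, for miR-26b, at 36 h against 1/3PH (0.24) and in the interaction (0.053). The median had shifted by 1.24, -1.32, 0.36 and 0.36 in these, and relative to it the values were -0.13, then 0.13 and 0.11, then -0.12 and -0.31, as they were in the scaling described.

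Quantile normalization added calls for miR-26a at 24 h against 1/3PH (-0.35), over the 4 times (-0.27) and for all operated livers (-0.29), for miR-26b at 36 h against 1/3PH (-0.31), and for the member difference (-0.24 and -0.17). It turned 12 h of 2/3PH against 1/3PH (-0.085 and -0.054), and for miR-26b 6, 12 and 36 h of 1/3PH against normal (-0.058, 0.038 and 0.054) and late minus early after 1/3PH (0.014). The deposited table added miR-26a over the 4 times (-0.26) and the member difference (-0.31 and -0.20). It turned the same results, at -0.084 and -0.054, then -0.20, 0.040, 0.054 and 0.086.

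With normexp, 4 arrays with bright local backgrounds were distorted (median spot 73.1 to 359 beside 56.5 to 62.2 on the others). Calls of miR-26a were lost at 24 h against normal (-0.40), at 36 h against 1/3PH (-0.37) and in the interaction (-0.37), and that of miR-26b late against early after 2/3PH (-0.18). For miR-26b, 12 h of 1/3PH against normal (0.0028) and of 2/3PH against 1/3PH (-0.031) turned. With those backgrounds replaced, of these calls only that at 24 h was lost (-0.40), and 12 h against 1/3PH turned for miR-26b (-0.024).

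The total gene signal turned miR-26a against normal at 6 and 12 h of 1/3PH (0.031 and 0.0053) and of 2/3PH (0.12 and 0.068), and miR-26b at 12 h (0.050 and 0.054). The dimmer probe turned miR-26a at 6 and 12 h of 2/3PH against normal (0.057 and 0.023) and late minus early after 1/3PH (0.0087), and miR-26b at 12 h against 1/3PH (-0.0062). On the first scan day alone the call of miR-26a at 24 h against normal was lost (-0.44). Signs there turned for 12 h of 1/3PH against normal (0.033 and 0.062), 12 h against 1/3PH (-0.052 and -0.061), miR-26a at 6 h of 2/3PH (0.0063), and miR-26b at 36 h of 1/3PH (0.0057) and 12 h of 2/3PH (0.0015).

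Slide as a fixed block could be fitted for 10 of 17 comparisons. It lost the interaction of miR-26a (-0.60) and turned miR-26a at 12 h of 2/3PH (0.0097) and miR-26b at 6 h of 1/3PH against normal (-0.029), which also turned with slide as a random block (-0.0033) and scan day as a block (-0.068). Scan day as a block lost miR-26a at 36 h against 1/3PH (-0.42) and added miR-26b at 24 h against normal (-0.37). miR-26a over the 4 times (-0.18) passed when only miRNAs on every array were tested and with eBayes trend.

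Within slides the share of the member difference between groups was 60.7% and its call was lost (permutation, adjusted p = 0.156), and within scan days it was 71.4%. The test of the member difference between the operations was not run within either, so the adjustment there covered fewer tests.

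Leaving out 1 array at a time kept every call of the members. Its ranges for results that turned or gained a call were, for miR-26a, -0.22 to 0.0029 (12 h of 1/3PH against normal), -0.025 to 0.20 (12 h against 1/3PH), -0.049 to 0.028 (12 h of 2/3PH), -0.024 to 0.045 (6 h of 2/3PH), -0.21 to -0.15 (over the 4 times) and -0.078 to 0.035 (late minus early after 1/3PH). For miR-26b they were -0.13 to 0.034, -0.070 to 0.093 and -0.11 to 0.025 in the first 3 of these, and -0.34 to -0.20 at 36 h of 2/3PH against normal. For the member difference between the operations the range was -0.12 to -0.081. At 6 h after 1/3PH this leaves 1 array, assumed to vary like the others.

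The number of miRNAs called moved more than the members: late minus early after 2/3PH gave 50, and 4 to 60 under the other settings. At 24 h of 2/3PH against normal it was 26, and 9 without replicate 1 of that group. At 36 h against 1/3PH it was 22, and 7 without replicate 1 of 2/3PH. With 1 array left out the count ran from 0 to 14 for late minus early after 1/3PH (14 with all arrays), from 0 to 10 at 12 h of 2/3PH against normal (10), from 0 to 13 at 12 h of 1/3PH (6), from 7 to 17 in the interaction (10), from 1 to 4 at 24 h against 1/3PH (4), from 2 to 9 over the 4 times (5) and from 0 to 8 for all operated livers (1). Over the other settings it ran from 0 to 89 at 6 h against 1/3PH (0) and from 0 to 39 at 6 h of 1/3PH against normal (0), both highest with the 75th percentile over all probes. It ran from 0 to 25 and from 0 to 33 at 24 h and 36 h of 2/3PH against normal (26 and 27), from 0 to 18 at 36 h against 1/3PH (22), from 0 to 15 for late minus early after 1/3PH, from 0 to 14 in the interaction, from 0 to 14 and from 0 to 13 at 12 h of 1/3PH and 2/3PH against normal, and from 0 to 10 over the 4 times.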
